A study of Mus musculus with 6 samples.

Results

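Type I interferon-induced genes were examined in mature thymic natural killer T (NKT) cells, T cells that recognise lipids on CD1d, bearing CD44 and NK1.1. The DOCK8-deficient cells came from the Captain Morgan strain, named in the labels as a DOCK8-deficient animal strain, and the wild type cells from mice labelled wildtype, with C57BL/6 given as the strain of both. DOCK8 activates the GTPase CDC42, which shapes actin in migrating lymphocytes. There were 3 replicates per group, with 1 Illumina bead array for each. The labels do not state the age of the mice or how many animals made up a replicate, and the p-values therefore cover the spread among these arrays, which may be technical in part. The set comprised 34 genes chosen by name as induced by type I interferon. A gene was measured when a probe annotated with its symbol alone was detected above background on at least 3 of the 6 arrays, at a detection p under 0.05, and the probe of highest mean signal over all arrays stood for the gene. By this rule 29 of the 34 genes were measured, among 9060 genes in all. Ifit1, Oas1a and Xaf1 had probes that were detected on at most 1 array, and Ifi44 and Ifi203 had no probe with their symbol alone.

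Type I interferons bind a receptor made of IFNAR1 and IFNAR2, whose kinases TYK2 and JAK1 phosphorylate STAT2. STAT2 and IRF9 are subunits of the complex ISGF3, which binds the interferon-stimulated response element (ISRE) in target promoters and switches on antiviral genes such as the IFIT, OAS, MX and IFITM families. Many of these genes keep a tonic level in lymphocytes without infection, and USP18 and SOCS proteins damp the response.

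Detection was similar between groups, with 16496 to 18451 of the probes detected in DOCK8-deficient samples and 17162 to 18327 in wild type samples. DOCK8-deficient replicate 2 was the dimmest array by median signal and had the fewest detected probes. All 10 marker genes listed for NKT cells, among them Zbtb16, Tbx21, Il2rb and Klrb1c (NK1.1), were detected on all 6 arrays, with a median difference of 0.01 on the log2 scale. The smallest p values among them belonged to Cxcr6 at -0.19 and Cd3d at 0.08 (limma adjusted p = 0.63 and 0.86). Dock8 itself differed by -0.01 (limma adjusted p = 0.99), so its signal did not separate the groups. A transcript signal does not report on the protein, the place of the probe relative to the mutation is not known here, and the grouping rests on the labels. S100a8, a neutrophil calprotectin gene, read 8.80 on DOCK8-deficient replicate 2 against 4.68 and 5.39 on the other arrays of that group, and 9.07 and 8.95 on wild type replicates 1 and 3 against 4.72 on wild type replicate 2. Signals below are log2 values after background correction and quantile normalization, and they are not comparable between probes of different genes.

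The interferon-induced genes did not move as a block. Of the 29 measured genes, 0 passed limma's test at an adjusted p under 0.05 over all genes, where 0.364% of all genes tested passed. At an unadjusted p under 0.05 there were 8, which is 27.6% of the measured genes against 11.3% of all genes tested. Of these, 6 were higher (5.67% of all genes) and 2 lower (5.65% of all genes) in DOCK8-deficient cells. The groups did not overlap for 10 of the 29, or 34.5%, against 17.1% of all genes tested. Of these 10, Bst2, Oasl2, Zbp1, Usp18, Ifi27l2a, Rsad2 and Parp9 were higher on every DOCK8-deficient array (7 genes, where 8.6% of all genes were), whereas Ifitm1, Ifitm3 and Dtx3l were lower on every one (3 genes, where 8.51% of all genes were). The median log2 difference, DOCK8-deficient minus wild type, was 0.08 over the measured genes and -0.01 over all genes tested, and 20 of the 29 genes had a positive difference, or 69.0%, against 48.9% of all genes. Scaling arrays to a common median moved the median of all genes to -0.08, with the set at 0.02 and 17 of 29 positive. The shift was not the same for every gene, and small differences below are to be read against it. The 95% interval lay within a 2-fold change either way for 24 of the 29 genes and within a 1.5-fold change for 14.

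**Figure D1:**
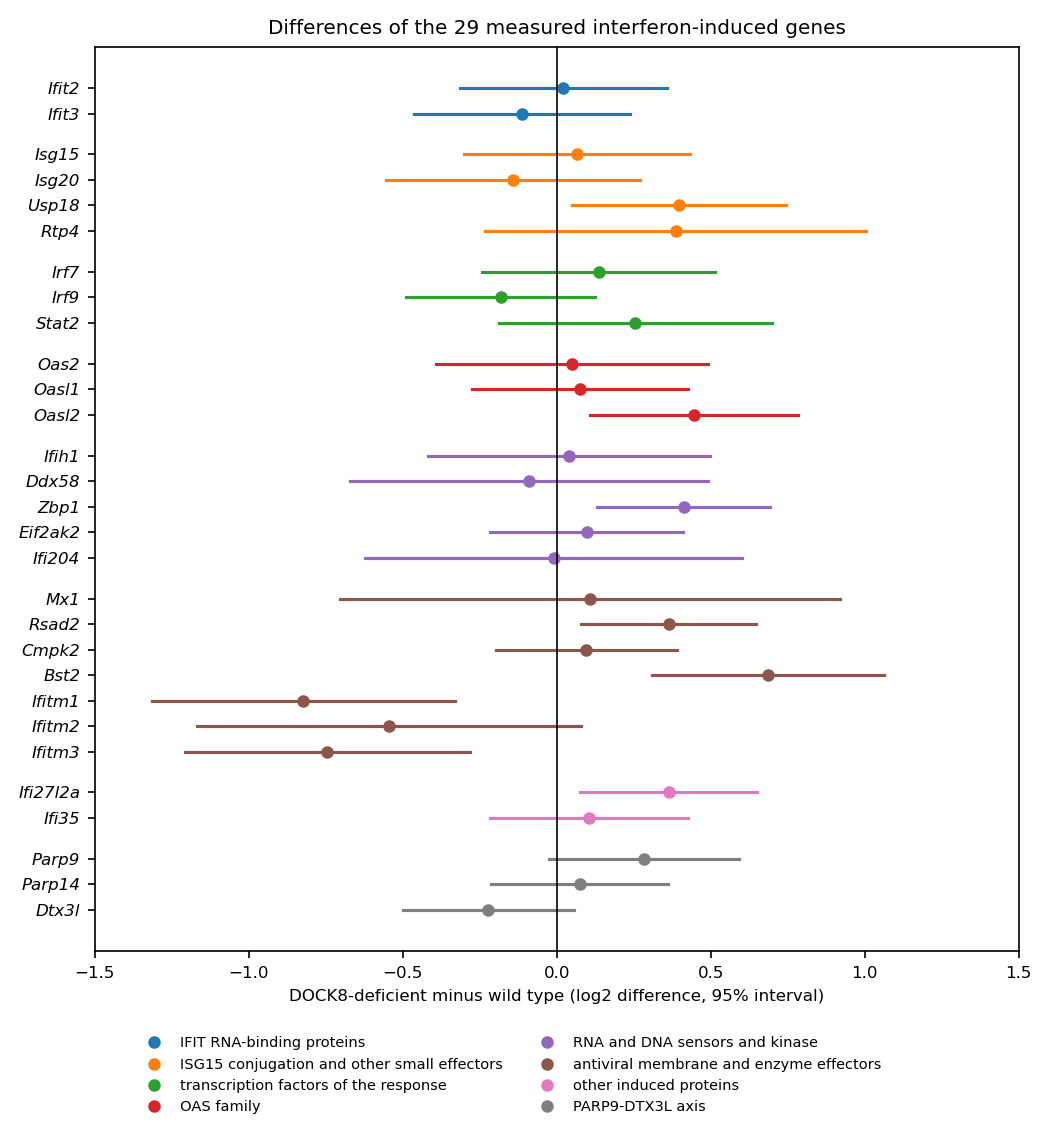
Log2 difference, DOCK8-deficient minus wild type, of each of the 29 measured genes (points) with its 95% interval from limma (lines), grouped and coloured by role. Most intervals span 0, and the 3 IFITM genes lie lowest, from -0.82 to -0.54.

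Seen array by array, the set was highest on DOCK8-deficient replicates 1 and 2. The median deviation of the measured genes from their own 6-array means was 0.13, 0.08 and -0.04 on DOCK8-deficient replicates 1, 2 and 3, against -0.06, -0.16 and 0.01 on wild type replicates 1, 2 and 3. DOCK8-deficient replicate 3 thus lay below wild type replicate 3, and the groups overlapped. The highest of the 6 values fell on DOCK8-deficient replicate 1 for 9 genes, on replicate 2 for 8 and on replicate 3 for 1, and on wild type replicates 1, 2 and 3 for 3, 2 and 6. The lowest value fell on wild type replicate 2 for 12 of the 29 genes (41.4%, against 12.1% of all genes tested) and on DOCK8-deficient replicate 2 for 0. With wild type replicate 2 left out, the median difference was 0.04 and 16 of 29 genes were higher.

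**Figure D2:**
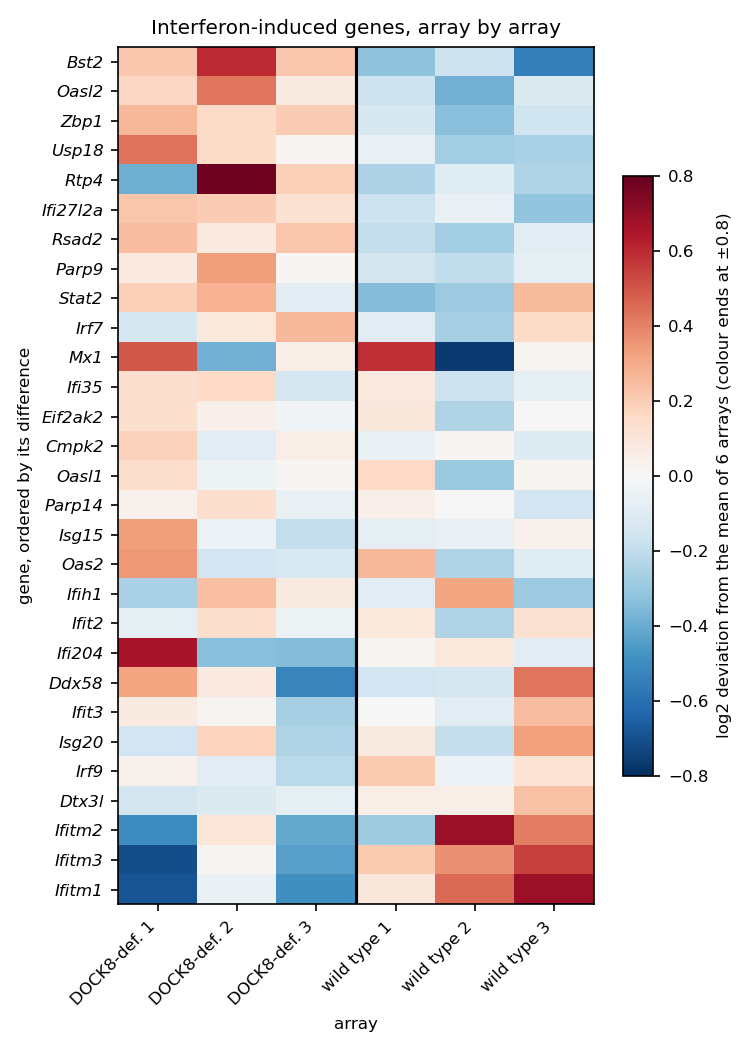
Deviation of each measured gene (rows, ordered by difference) from its mean over the 6 arrays (columns, DOCK8-deficient left, wild type right), in log2 units from blue (lower) to red (higher). The upper rows are mostly red on DOCK8-deficient arrays, except Rtp4 on replicate 1 (-0.39). The 3 IFITM rows at the bottom are mostly blue there, and the middle rows vary between arrays of the same group.

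The transcription factors of the response showed no common direction. Stat2, which encodes a subunit of ISGF3, read 7.65, 7.74 and 7.38 in DOCK8-deficient cells, against 7.12, 7.18 and 7.71 in wild type cells. Its log2 difference was 0.26 (95% interval -0.19 to 0.70), with overlap through wild type replicate 3, and it ranged from 0.15 to 0.44 with each array left out. Irf7, which amplifies interferon production, differed by 0.14 (-0.24 to 0.51), or 0.04 to 0.25 with each array left out. Irf9, the DNA-binding subunit of ISGF3, read 10.44, 10.31 and 10.18 in DOCK8-deficient cells, against 10.61, 10.36 and 10.51 in wild type cells. The Irf9 groups overlapped on this probe, at a difference of -0.18 ± 0.13 (SE, limma adjusted p = 0.67). On the second Irf9 probe the groups were apart, with 8.80, 8.53 and 8.43 in DOCK8-deficient cells and 9.28, 8.93 and 9.17 in wild type cells, a difference of -0.54 (limma adjusted p = 0.31 over all detected named probes). Neither probe of Irf9 passed, and both had the same sign.

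Among the nucleic acid sensors, Zbp1 stood apart from the others. ZBP1 binds Z-form nucleic acids and can trigger cell death. Its probe read 8.69, 8.58 and 8.62 in DOCK8-deficient cells, against 8.29, 8.09 and 8.27 in wild type cells. Every DOCK8-deficient array was above every wild type array, a 1.33-fold difference (log2 0.41 ± 0.12 SE, limma adjusted p = 0.25), and the second detected Zbp1 probe differed by 0.49, again without overlap. Ddx58, which encodes the RNA sensor RIG-I, differed by -0.09 on its brightest probe (-0.67 to 0.49) but by 0.16 and 0.24 on its other 2. Ifih1, the long RNA sensor MDA5, differed by 0.04 and Ifi204, a DNA sensor of the p200 family detected on 4 of 6 arrays, by -0.01, while Eif2ak2, the kinase PKR that halts translation, differed by 0.10. Those 4 genes had overlapping groups.

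The IFIT genes, whose products bind foreign RNA ends, had overlapping groups on each detected probe. So did Oas2 and Oasl1 on the probes used. Ifit3 read 12.20, 12.15 and 11.86 in DOCK8-deficient cells, against 12.13, 12.04 and 12.37 in wild type cells, and Ifit2 averaged 9.80 ± 0.12 in DOCK8-deficient arrays and 9.78 ± 0.20 in wild type arrays (SD, n = 3). The intervals were -0.46 to 0.24 for Ifit3 and -0.32 to 0.36 for Ifit2. In both genes the groups overlapped, also on their second probes, which differed by -0.40 for Ifit3 and -0.07 for Ifit2. OAS enzymes make 2′-5′ oligoadenylates that activate RNase L, and Oasl1 and Oasl2 encode OAS-like proteins. Oasl2 read 9.99, 10.25 and 9.90 in DOCK8-deficient cells, against 9.66, 9.43 and 9.71 in wild type cells. The groups were apart by 1.36-fold (log2 0.44 ± 0.15 SE, limma adjusted p = 0.30). A dimmer Oasl2 probe differed by 0.50 without overlap, and the dimmest, detected on 4 arrays, by -0.24. Oas2 differed by 0.05 and Oasl1 by 0.08, each with overlap. The second Oasl1 probe read 7.49, 7.94 and 7.39 in DOCK8-deficient cells, against 6.96, 6.77 and 7.12 in wild type cells, so the 2 Oasl1 probes gave unlike sizes, at 0.08 and 0.66.

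Among the 4 measured members grouped as ISG15 conjugation and other small effectors, Usp18 was the one whose groups did not overlap. Its product is the deconjugating enzyme, which also blocks receptor signalling. Usp18 read 10.84, 10.55 and 10.41 in DOCK8-deficient cells, against 10.34, 10.12 and 10.14 in wild type cells. The groups did not overlap, at 1.32-fold (log2 0.40 ± 0.15 SE, limma adjusted p = 0.38), and its second probe differed by 0.34 with overlap. Isg15 itself, the ubiquitin-like modifier, read 10.11, 9.73 and 9.59 in DOCK8-deficient cells, against 9.70, 9.71 and 9.81 in wild type cells, and the groups overlapped at a difference of 0.07. Isg20, an RNA exonuclease, differed by -0.14, or -0.27 to -0.01 with each array left out. Rtp4, a transporter-like protein gene for receptors, read 6.39, 7.55 and 6.97 in DOCK8-deficient cells, against 6.53, 6.68 and 6.54 in wild type cells. The difference in Rtp4 came mainly from DOCK8-deficient replicate 2, and without that array it was 0.09 in place of 0.39.

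Bst2 had the largest positive difference of the measured genes on the probes used. It encodes tetherin (CD317), which holds budding virus at the cell surface. Its signals were 9.21, 9.59 and 9.21 in DOCK8-deficient cells, against 8.67, 8.83 and 8.45 in wild type cells. Every DOCK8-deficient array was above every wild type array, at 1.61-fold (log2 0.69 ± 0.16 SE, 95% interval 0.31 to 1.06, limma adjusted p = 0.15). The difference was 0.56 to 0.78 with each array left out in turn, and 0.60 under median scaling. Bst2 passed without background correction (limma adjusted p = 0.040), in the deposited log2 table (0.049) and with a trended robust prior (0.020), and its adjusted p ranged from 0.020 to 0.98 over 14 alternatives. Bst2 had 1 probe on the array.

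Rsad2, encoding viperin, an enzyme that makes a chain-terminating nucleotide, and Ifi27l2a, a small membrane protein gene of the ISG12 family, were also higher on each DOCK8-deficient array. Rsad2 read 9.87, 9.71 and 9.85 in DOCK8-deficient cells, against 9.43, 9.36 and 9.55 in wild type cells, a 1.29-fold difference (log2 0.36 ± 0.12 SE, limma adjusted p = 0.32). Ifi27l2a read 13.74, 13.72 and 13.64 in DOCK8-deficient cells, against 13.35, 13.46 and 13.20 in wild type cells (log2 0.36 ± 0.12 SE, limma adjusted p = 0.33). For both genes the group difference was larger than the SD within either group, of at most 0.13. Cmpk2, the mitochondrial nucleotide kinase encoded next to Rsad2, differed by 0.10 with overlap, although the genes are neighbours in RefSeq order. Mx1, a dynamin-like GTPase, had the largest SE of the measured genes (0.35), with 7.30, 6.41 and 6.85 in DOCK8-deficient cells and 7.38, 6.04 and 6.82 in wild type cells. Its groups covered the same range. Ifi35, a partner of NMI, differed by 0.10.

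**Figure D3:**
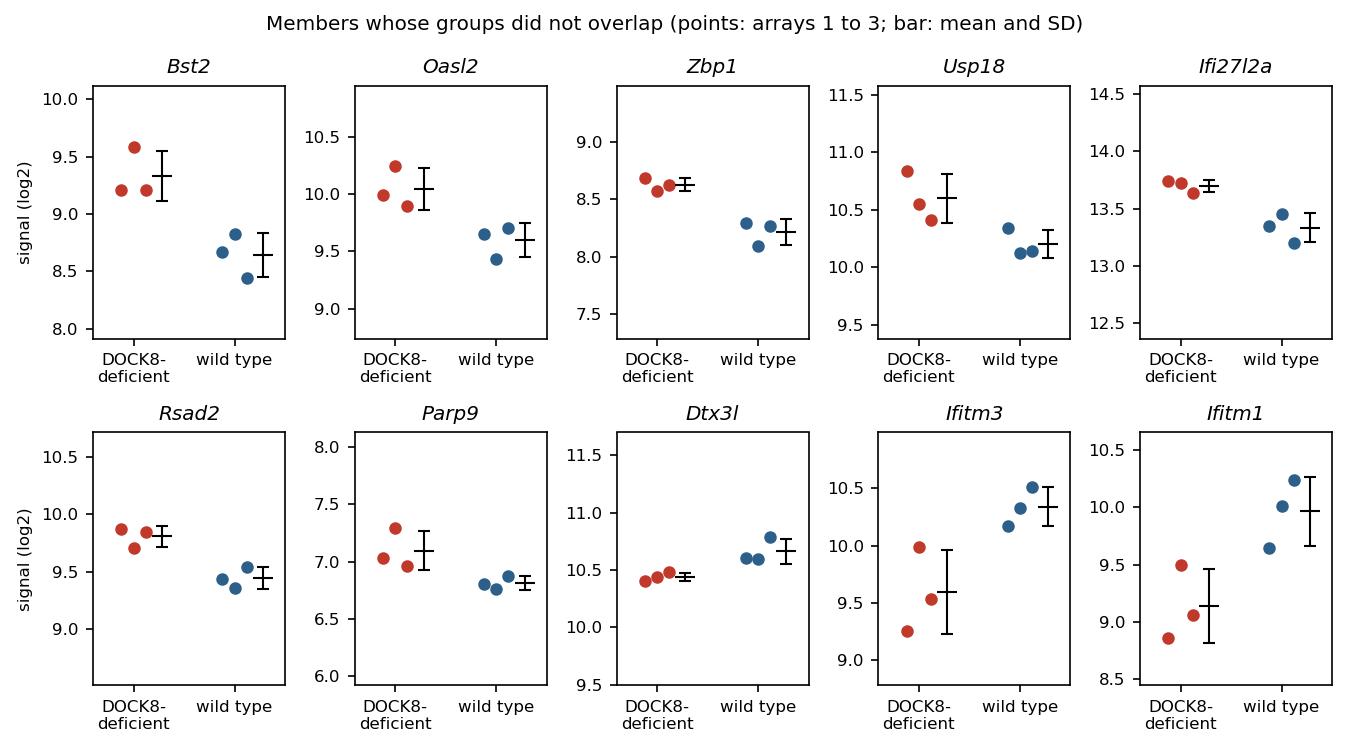
Log2 signal on each array (points, replicates 1 to 3 from left to right) with the mean and SD of each group (bars) for the 10 measured genes whose groups did not overlap, DOCK8-deficient left and wild type right. Each panel spans the same range of 2.2 log2 units, from Bst2 (difference 0.69) to Ifitm1 (difference -0.82).

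The IFITM genes ran the other way. IFITM proteins sit in endosomal and plasma membranes and hinder fusion of viral envelopes, and the genes Ifitm1, Ifitm2 and Ifitm3 lie side by side on chromosome 7. Ifitm1 read 8.86, 9.50 and 9.06 in DOCK8-deficient cells, against 9.64, 10.01 and 10.24 in wild type cells. Ifitm3 read 9.26, 9.99 and 9.53 in DOCK8-deficient cells, against 10.17, 10.33 and 10.51 in wild type cells. For both genes every DOCK8-deficient array was below every wild type array. Ifitm2 had 8.71, 9.31 and 8.80 in DOCK8-deficient cells, against 8.93, 9.90 and 9.62 in wild type cells, where DOCK8-deficient replicate 2 was above wild type replicate 1. The differences were -0.82 ± 0.21 for Ifitm1, -0.75 ± 0.20 for Ifitm3 and -0.54 ± 0.27 for Ifitm2 (log2, SE), at limma adjusted p of 0.19 for Ifitm1, 0.20 for Ifitm3 and 0.50 for Ifitm2.

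Within each group the 3 IFITM genes kept nearly the same order of arrays. DOCK8-deficient replicate 1 was the lowest of all 6 arrays in each of the 3 genes, and replicate 2 was the highest of its group. Wild type replicate 1 was the lowest of its group in all 3. The 3 genes are paralogs, and their probe sequences were not used here, and hybridisation of 1 transcript to the probe of another was not tested. With each array left out in turn the difference of Ifitm1 stayed at -0.68 or lower, and it ranged from -0.94 to -0.58 for Ifitm3 and from -0.82 to -0.34 for Ifitm2. Ifitm1 passed without background correction (limma adjusted p = 0.049), in the deposited log2 table (0.048) and with a trended robust prior (0.023), within a range of 0.023 to 0.42 over 14 alternatives. Ifitm3 passed with the trended robust prior (limma adjusted p = 0.022), within a range of 0.022 to 0.44.

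Ifitm1 had 5 probes, which gives more readings of that gene. On the second, detected on 6 arrays, it read 6.77, 8.10 and 7.65 in DOCK8-deficient cells, against 8.14, 9.08 and 8.85 in wild type cells, a difference of -1.18 (limma adjusted p = 0.32 over all detected named probes). The third, dim but detected on 6 arrays, differed by -0.40 with overlap. The remaining 2 were detected on 2 arrays each and were left out of the test. Most of their readings were thus not above background. They did not overlap, but in the brighter one wild type replicate 1 read 5.22 against 5.19 on DOCK8-deficient replicate 2. All 5 probes had a lower mean in DOCK8-deficient cells, of which these 2 add little. Since the probes share the arrays they are not independent replicates.

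**Figure D4:**
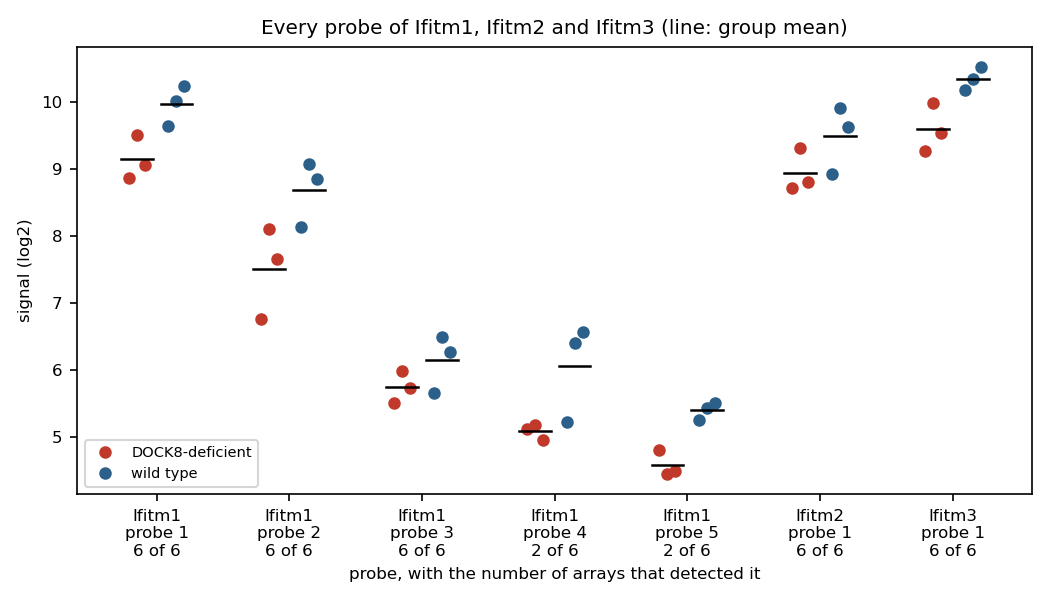
Log2 signal of every probe of Ifitm1, Ifitm2 and Ifitm3 on the DOCK8-deficient arrays (red, left of each pair) and the wild type arrays (blue), with group means (lines) and the number of arrays that detected the probe. The DOCK8-deficient mean is lower at all 7 probes, and the groups overlap at the third Ifitm1 probe and at Ifitm2. The last 2 Ifitm1 probes were detected on 2 arrays each, so most of their points are not above background.

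The chromosomal neighbours of the IFITM genes did not share 1 direction. In RefSeq order of protein-coding genes (assembly GRCm38.p6, used here for order alone), 8 genes flanking the cluster were measured, whereas Ifitm5 and Ifitm6 within it were not. The nearest on the side of Ifitm2 was Pgghg, which encodes a glucosidase of collagen-linked sugars, and it differed by -0.63 without overlap (limma adjusted p = 0.14). Further on that side were Psmd13, a proteasome subunit gene, at 0.26, the mitochondrial deacetylase gene Sirt3 at 0.19 and Bet1l at -0.21. On the side of Ifitm3, B4galnt4 differed by -0.43, the desmosomal gene Pkp3 by 0.43, Sigirr, an inhibitory receptor gene of the interleukin-1 family, by -0.23 and Ptdss2 by -0.03. Of the 8, 0 passed limma's test over all genes. At an unadjusted p under 0.05 there were 2, against 11.3% of all genes tested (Pgghg and Pkp3, which lay in opposite directions).

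The PARP9 axis gave another split between adjacent genes. Parp9 encodes a mono-ADP-ribosyltransferase family member and Dtx3l the ubiquitin ligase that binds it, and the genes lie next to each other on chromosome 16. Parp9 read 7.04, 7.29 and 6.96 in DOCK8-deficient cells, against 6.81, 6.76 and 6.88 in wild type cells. Dtx3l read 10.41, 10.44 and 10.48 in DOCK8-deficient cells, against 10.60, 10.60 and 10.79 in wild type cells. Neither group pair overlapped, and the differences had opposite signs, at 0.28 ± 0.13 for Parp9 and -0.22 ± 0.12 for Dtx3l (log2, SE; limma adjusted p = 0.48 and 0.55). The second Dtx3l probe differed by -0.003 with overlap, so the lower reading was that of 1 probe. Parp14, a related transferase, differed by 0.08.

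Promoter sequence from RefSeq was available for 25 of the 34 genes, in windows of 250 bases before to 50 after the annotated start. The core of the ISRE, spelled GAAA, any 2 bases, then GAAA, was searched on both strands, and overlapping matches counted separately. They occurred in 13 of those 25 genes (52.0%), against 3.99% of all 27025 genes in the table. Among the genes with a match were Bst2, Rsad2, Ifitm2, Ifitm3, Isg15, Ifit3, Stat2 and Eif2ak2, and Ifitm1, Oasl2 and Cmpk2 were among those without one in this window. The letters TTCNNNGAA, the core of the gamma-activated site, which reads the same on both strands, occurred in 7 of the 25 genes (28%) against 9.55% of all genes. Matches stood in genes that read higher in DOCK8-deficient cells (Bst2, Rsad2), lower (Ifitm2, Ifitm3) and near the same (Isg15, Ifit3). To show this, the 150 bases before the start of 4 of them are given 5′ to 3′ on the gene's strand in GRCm38.p6, with matches to the ISRE core on either strand in capitals. Bst2 lies at chr8:71537473-71537622, Rsad2 at chr12:26456453-26456602, Ifitm2 at chr7:140955962-140956111 and Isg15 at chr4:156200819-156200968, all on the minus strand.
Bst2: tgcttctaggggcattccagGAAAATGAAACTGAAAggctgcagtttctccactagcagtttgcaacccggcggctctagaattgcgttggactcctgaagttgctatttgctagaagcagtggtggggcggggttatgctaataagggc
Rsad2: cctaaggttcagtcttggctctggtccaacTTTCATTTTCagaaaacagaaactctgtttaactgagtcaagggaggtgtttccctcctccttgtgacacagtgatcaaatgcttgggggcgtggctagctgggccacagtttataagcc
Ifitm2: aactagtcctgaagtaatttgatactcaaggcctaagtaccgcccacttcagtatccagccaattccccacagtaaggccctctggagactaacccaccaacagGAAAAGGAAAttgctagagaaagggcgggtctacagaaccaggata
Isg15: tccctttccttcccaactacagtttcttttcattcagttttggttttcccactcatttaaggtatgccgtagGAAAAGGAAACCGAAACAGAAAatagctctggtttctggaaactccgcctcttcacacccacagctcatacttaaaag
Within these 150 bases Isg15 held 3 overlapping matches, Bst2 held 2 and Rsad2 and Ifitm2 held 1 each. A match is a description of the letters and not evidence of binding.

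The genes upstream of the set were measured on the same arrays. Of 15 measured genes of the receptor, its kinases and the regulating factors, 0 passed limma's test over all genes. At an unadjusted p under 0.05 there were 2, Socs3 and Irf8, where 11.3% of all genes tested reached that level. Socs3, a feedback inhibitor of cytokine receptors, read 9.56, 9.09 and 9.71 in DOCK8-deficient cells, against 8.81, 8.96 and 8.69 in wild type cells (log2 difference 0.63 ± 0.18 SE, limma adjusted p = 0.23). Socs3 passed with a trended robust prior (limma adjusted p = 0.049, range 0.049 to 1.0 over 14 alternatives). Ifnar2, the receptor chain, differed by -0.24 (95% interval -0.54 to 0.06), Jak1 by -0.18 (-0.54 to 0.18) and Tyk2 by 0.06 (-0.30 to 0.42). Irf1 differed by 0.04 and Irf3 by 0.06, and Ifnar1 was not detected on enough arrays. The median of these 15 genes was -0.04.

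Few interferon transcripts were detected. Of 20 ligand symbols 17 had a probe and 4 were measured, with differences from -0.14 to 0.13. Ifnab and Ifna6 were detected on all 6 arrays, Ifna1 on 5 and Ifna12 on 3. Among 11 measured genes of nucleic acid sensing, Tlr7, the endosomal receptor for single-stranded RNA, fell (log2 difference -1.51 ± 0.20 SE, limma adjusted p = 0.030), with 7.03, 7.27 and 6.82 in DOCK8-deficient cells against 8.82, 8.18 and 8.64 in wild type cells. With any 1 array left out Tlr7 no longer passed (limma adjusted p from 0.059 to 0.16), nor with the replicate block (0.15). The other 10 did not pass, with Samhd1, a dNTP hydrolase, at 0.35 and the adaptor gene Mavs at -0.34.

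A longer list of other interferon-induced genes was also divided. Of 70 symbols 48 were measured, with a median of 0.03. Of these 48, 28 were higher and 20 lower in DOCK8-deficient cells, where 48.9% of all genes tested were higher. In limma 0 passed over all genes. At an unadjusted p under 0.05 there were 4 in each direction, where 5.67% of all genes tested were higher and 5.65% lower. The higher ones were led by Ly6c1, a lymphocyte surface antigen gene, which read 15.06, 14.77 and 14.83 in DOCK8-deficient cells, against 14.33, 14.29 and 14.23 in wild type cells (log2 difference 0.60 ± 0.13 SE, limma adjusted p = 0.12), and by Phf11a at 0.62. Apol9a, an apolipoprotein L family gene, read 6.11, 7.11 and 7.07 in DOCK8-deficient cells, against 7.93, 7.56 and 7.73 in wild type cells (-0.97 ± 0.27, limma adjusted p = 0.22), and its near copy Apol9b differed by -0.68. Apol9a passed under median scaling (limma adjusted p = 0.040), in the deposited log2 table (0.046) and with a trended robust prior (0.0496), within a range up to 0.53. The probes of these near copies may share signal. Ly6c1 passed without background correction (limma adjusted p = 0.0089) and with a trended robust prior (7.1e-04), within a range up to 1.0 over 14 alternatives.

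Genes known chiefly as targets of interferon gamma were also measured. Of 11, 6 were higher and 5 lower, 0 passed in limma and 2 had an unadjusted p under 0.05, against 11.3% of all genes tested. Ifi47, an immunity-related GTPase gene, read 11.53, 10.81 and 10.79 in DOCK8-deficient cells, against 12.39, 12.09 and 12.17 in wild type cells (log2 difference -1.18 ± 0.21 SE, limma adjusted p = 0.087), and the chemokine gene Cxcl10 differed by 0.71 ± 0.15 (0.12). Ifi47 passed in 6 of 14 alternatives, in the deposited log2 table (limma adjusted p = 0.013), without background correction (0.0066), with median scaling (0.0088), with detection under 0.01 on all 6 arrays (0.029), with a trended robust prior (0.0076) and without DOCK8-deficient replicate 1 (0.030), and its adjusted p reached 0.29 in the others. Cxcl10 passed with the mean of its probes, where the difference was 1.09 (limma adjusted p = 0.025, range 0.025 to 0.87 over 13 alternatives). The Cxcl10 probe used was dim, averaging 6.59 in DOCK8-deficient arrays and 5.87 in wild type arrays. Without background correction the Cxcl10 difference was 0.20 (limma adjusted p = 0.30), so its size depends on the processing. Tgtp1, another such GTPase, differed by -0.48 with overlap.

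**Figure D5:**
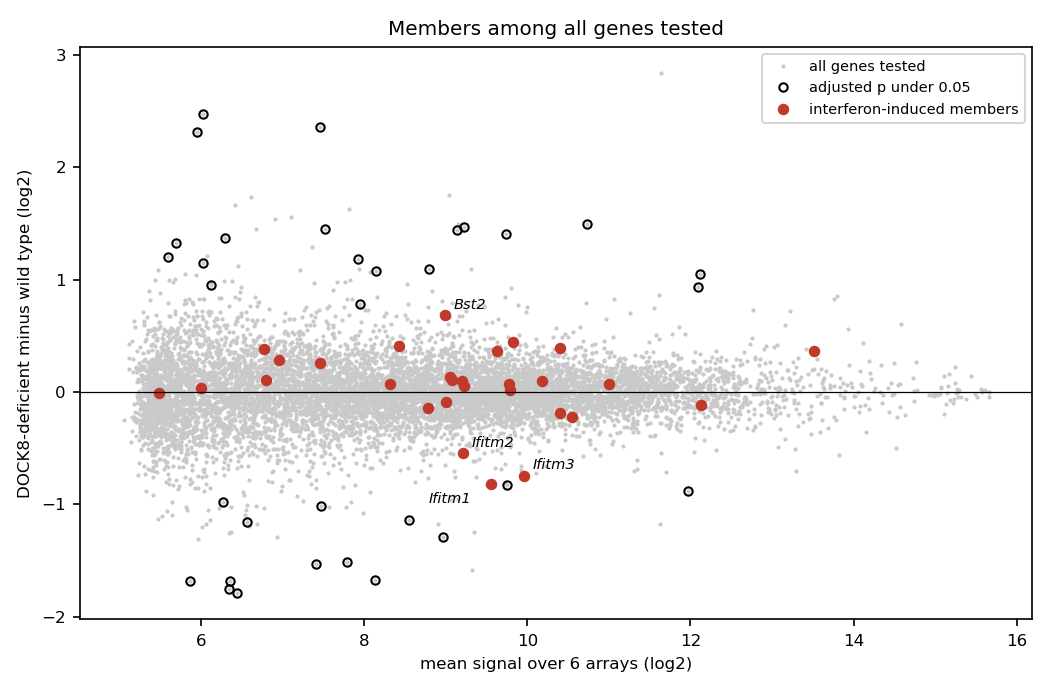
Difference, DOCK8-deficient minus wild type (y, log2), against mean signal over the 6 arrays (x, log2) for all genes tested (grey), genes with an adjusted p under 0.05 (open circles) and the measured interferon-induced genes (red). Bst2 (0.69) and the 3 IFITM genes (-0.82 to -0.54) are labelled, and 0 of the red points is circled.

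Markers of other cells that express these genes strongly were read beside them, since fewer cells of a type and less RNA per cell cannot be told apart in bulk RNA. Of 10 plasmacytoid dendritic cell markers 5 were measured, 3 higher and 2 lower, 0 past limma's test, with Irf8 (shared with the signalling list) at 0.42 and Pacsin1 at -0.39, both at an unadjusted p under 0.05. That level was reached by 11.3% of all genes tested. The summed linear signal of these 5 markers ranged from 2532 to 2802 in DOCK8-deficient samples and from 2621 to 3306 in wild type samples. Such a sum weighs the brightest gene most, here Pacsin1. Siglech, which defines these cells, was detected on all arrays at a difference of 0.23, while Ccr9, Cox6a2, Klk1, Spib and Tlr9 were not measured. Of 18 myeloid and conventional dendritic cell symbols 11 were measured, 8 higher and 3 lower, where 48.9% of all genes tested were higher. Mpeg1, at 0.76, was the one at an unadjusted p under 0.05, against 11.3% of all genes tested. Lyz2 differed by 0.70 (limma adjusted p = 0.52, and 0.25 for Mpeg1). Of the 3 lower ones, S100a8 differed by -1.29 and S100a9 by -0.88, each detected on 1 DOCK8-deficient and 2 wild type arrays. The summed signal of the 11 genes was 3662 to 5681 in DOCK8-deficient samples and 3499 to 4430 in wild type samples. The defining markers Itgam, Itgax, Cd14, Adgre1, Clec9a and Xcr1 were not measured. DOCK8-deficient replicate 2 had the highest median deviation of this list, 0.73, and was the highest array for 8 members, among them Bst2, Oasl2, Rtp4 and Parp9. DOCK8-deficient replicate 1, where the list stood at 0.14, was the highest for 9, among them Usp18, Zbp1, Rsad2 and Ifi27l2a. On DOCK8-deficient replicate 3 the list stood at -0.29, and there too the 7 members higher without overlap were above every wild type array. Without DOCK8-deficient replicate 2, Bst2 differed by 0.56 and Oasl2 by 0.34. The part of these cells in the higher readings was not tested.

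Of the markers of other T cell stages, Dntt passed the test. It met the detection rule through the 3 wild type arrays alone, so its entry to the test depended on the group where it read higher. All 6 measured markers of double-positive thymocytes were lower in DOCK8-deficient cells, with a median of -0.49. Dntt, the terminal transferase of receptor rearrangement, fell (limma adjusted p = 0.028, and 0.10 with the replicate block) and was not detected on any DOCK8-deficient array. It passed in 1 of 6 fits with an array left out, and Cd1d1 differed by -0.77 (limma adjusted p = 0.22, range 0.034 to 0.53 over 14 alternatives, of which the trended robust prior alone passed), while Cd8b1 and Cd4 differed by -0.07 and -0.05 with overlap. The summed signal of this list was 1875 to 2212 in DOCK8-deficient samples and 2233 to 2788 in wild type samples, and Cd8a, Rag2 and Ptcra were not measured. Of 3 measured naive T cell markers 2 were lower, Satb1 at -0.36 and Lef1 at -0.60, and Klf2 differed by 0.04. In limma 0 of these passed the test and 1 had an unadjusted p under 0.05, against 11.3% of all genes tested. The summed signal of these 3 genes was 14513 to 16421 in DOCK8-deficient samples and 18321 to 18652 in wild type samples. Most of that sum is Satb1, the brightest of them, so it largely repeats the Satb1 difference. NK cell markers had 4 measured genes, 2 in each direction, with Klra8 at -0.96 and Klri1 at -0.24 (limma adjusted p = 0.099 and 0.82). Klra8 passed without background correction (limma adjusted p = 0.012), in the deposited log2 table (0.023), with detection under 0.01 on all 6 arrays (0.041) and with a trended robust prior (0.0031), within a range up to 0.32. B cell markers had 3 measured genes, 0 of them detected on all 6 arrays, with Cd79b at -0.12 and Ebf1 at -0.02. The part of any of these cells in the IFITM readings was not tested.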

How the data were processed

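The authors deposited linear intensities of 45281 probes beside detection p-values, per the file headers. A second deposited table holds log2 values, as judged from their range, and ranks probes within each array as the intensities do (rank correlation 0.999999). Its normalization by the authors is unstated in the labels. Intensities were background corrected from the detection p-values and quantile normalized with neqc (offset 16, log2) of limma 3.58.1 in R 4.3.3. Probes with 1 symbol in the platform annotation (34885 of them, with 18 naming several genes and 10378 unlisted) entered when detected at p under 0.05 on 3 or more of 6 arrays, 1 probe per gene. Groups, taken from sample titles, were compared over 9060 genes with limma (lmFit, eBayes, 2-sided) and Benjamini-Hochberg adjustment at 0.05. The 34 genes and all lists were chosen with earlier results of these data known. Full values are given for measured genes at an unadjusted p under 0.05 and the brightest ones. Each pathway list shows its passing genes, or its 3 of smallest p (for nucleic acid sensing, also Samhd1 and Mavs, the next by p), and each marker list its 2 of smallest p, beside fixed receptor, kinase and IRF genes. Genes named otherwise (Irf9, Parp9, Dtx3l, Rtp4, Mx1, the IFITM neighbours, Apol9b, S100a8, S100a9, Klf2, Cd8b1, Cd4, Zbtb16, Tbx21, Il2rb, Klrb1c, Siglech) were chosen after their values were seen. The number of arrays limits the precision. Alternatives were other background corrections, scalings, filters, probe rules and priors, a replicate block and each array left out.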

Additional observations from a re-analysis of the deposited data

How the results depend on the processing

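The 0 calls among the 29 measured genes became 2 without background correction and 2 in the deposited log2 table (Bst2 and Ifitm1 in each), and 3 with a trended robust prior (those and Ifitm3). They stayed 0 under the other 5 settings and with each array left out. Over all genes the count of calls was 33 and became 126 without background correction, 62 with median scaling, 126 in the deposited table, 80 with detection under 0.01 on all 6 arrays, 165 with the trended robust prior, 0 with the replicate block and 2 to 15 with an array left out. The median difference of the set lay between 0.02 and 0.12 throughout. Deviations of same-numbered samples from their group means correlated at 0.04, -0.15 and -0.27, and those of differently numbered samples at -0.21 to 0.36. Deviations within a group sum to 0, so positive and negative correlations tend to balance. These values therefore cannot decide whether the numbers pair samples. The replicate block ended the calls of Tlr7 and Dntt. Median scaling moved the median of all genes to -0.0764 from -0.0051. The shift under median scaling differed between genes, with Ly6c1 going from 0.60 to 0.46 and Ifi204 rising from -0.0097 to 0.0484. Signs turned under median scaling for Ifit2 (-0.0385), Oas2 (-0.0285), Oasl1 (-0.0166), Ifih1 (-0.0645), Ifi204 (0.0484) and Cd3d (-0.0036). They also turned in the deposited table for Ifih1 (-0.0012) and Ifi204 (0.021), and with the mean of probes for Ifit2 (-0.0251), Ddx58 (0.11), Dock8 (0.26) and Irf1 (-0.12). With an array left out the ranges that crossed 0 were -0.084 to 0.18 for Isg15, -0.11 to 0.19 for Oas2, -0.25 to 0.43 for Mx1, -0.093 to 0.0887 for Ifit2, -0.10 to 0.21 for Ifih1, -0.34 to 0.16 for Ifi204, -0.27 to 0.15 for Ddx58, -0.0529 to 0.17 for Oasl1, -0.0002 to 0.17 for Eif2ak2, -0.10 to 0.10 for Dock8, -0.0638 to 0.17 for Tyk2, -0.0523 to 0.16 for Irf3, -0.24 to 0.17 for Ifna1, -0.0733 to 0.34 for Ifnab, -0.37 to 0.19 for Cd79b, -0.18 to 0.17 for Ebf1 and -0.53 to 0.0007 for Klri1. None of these differences passed in any setting. The cause of these changes was not tested. Precision was lowest among the 29 genes for Mx1 (SE 0.35), and probes near background limit Ifi204, detected on 4 arrays.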
